A study of Homo sapiens with 20 samples.

Results

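MDA-MB-468 cells treated with EGF for 24 h were compared with untreated control cells, using 4 RNA-seq libraries of each, which are 8 of the 20 libraries of the study. MDA-MB-468 is an established human line of triple-negative breast cancer cells with an epithelial character and an amplified EGFR gene. Cells were grown in medium with serum for 24 h, then kept without serum for 24 h, and the 24 h group received EGF at 50 ng/mL. The control (CTR) received none. The labels state that the groups were started and collected together and differed in when EGF was added. They do not say how this fits with 24 h without serum before EGF in every group, so that the time without serum may differ between groups. The other groups, with EGF for 12 h, 48 h and 72 h, were used here to place the 24 h values in time. The labels call the 4 libraries of a group biological replicates, but do not say how they were kept apart, and all come from 1 cell line, so that p-values measure the spread between these libraries.

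Epidermal growth factor (EGF) binds its receptor EGFR, a tyrosine kinase that activates the RAS and MAP kinase cascade. The cascade switches on immediate early transcription factors, among them the FOS and JUN proteins, which pair as AP-1 and bind the DNA sequence TGACTCA. Among the genes known to respond are those for further EGFR ligands and for inhibitors that shut the same cascade down. In this cell line EGF is used to induce an epithelial to mesenchymal transition (EMT), in which epithelial cells loosen their junctions, gain vimentin and become motile.

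The control libraries held 18393007 to 22158289 estimated counts and the 24 h libraries 16120115 to 21419262, and 16522 of 60271 genes passed the filter on low counts. Levels are CPM, counts scaled to a common library size with TMM factors, given as the mean ± SD of n = 4 or in the order of replicates 1 to 4, and they compare libraries, not genes of different length. A gene was called when its adjusted p in edgeR's quasi-likelihood test was under 0.05, and "rose" and "fell" are used only for called genes. TMM factors were 1.06 to 1.08 in the controls and 0.957 to 0.995 at 24 h. EGF 24 h replicate 1 stood apart, with a first principal component of 12.5 against 30.9 to 34.8 in the other 24 h libraries, and it was the lowest 24 h library for many of the genes that rose most. Mitochondrial genes took 10.9 ± 1.84% of the counts in the controls and 12.4 ± 1.2% at 24 h. As a check of the cell type, 10 breast epithelial markers summed to 5351 to 5974 CPM in the controls and 11399 to 14098 CPM at 24 h. Most of this sum in both groups was EGFR, whose values are given below, followed by KRT18. Of the 10 markers, 7 rose and 1 fell, which was CDH1, with means of 127 and 103 CPM. EPCAM had means of 181 and 185 CPM, and CLDN4 48.9 and 47.6 CPM. PGR, the progesterone receptor, was at 0 in all 8 libraries. Of 10 immune cell markers, 4 were at 0 in all 8, CD3D, MS4A1 and NKG7 among them, and the list summed to 7.23 to 9.80 CPM and 20.9 to 25.6 CPM. In the controls the sum was mostly CSF1R and CD14, with means of 3.96 and 2.98 CPM. Most of the sum at 24 h was CD68, a lysosomal membrane protein used as a macrophage marker, which rose from 1.15 ± 0.331 to 17.3 ± 1.98 CPM (log2 fold change 3.89 ± 0.14 (SE), adjusted p = 8.44e-17). Fibroblast markers summed to 8.27 to 10.6 and 13.1 to 14.9 CPM with LUM and CSPG4 at 0, and endothelial markers to 6.06 to 6.53 and 8.05 to 9.94 CPM with CLDN5 at 0. Most of the fibroblast sum was COL1A1, with means of 6.18 and 10.9 CPM. Most of the endothelial sum was ESAM (3.08 and 4.63 CPM) and PECAM1 (2.31 and 2.99 CPM). In bulk RNA, fewer cells of a kind and less RNA per cell cannot be told apart.

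At 24 h, 9717 of the 16522 genes were called (58.8%), 4819 higher (29.2%) and 4898 lower (29.6%) than in the control. Of these, 5563 (33.7%) differed by more than 1.5-fold, 2791 upward (16.9%) and 2772 downward (16.8%). These counts share 1 estimate of the spread with the other EGF groups. When only the libraries compared were fitted, 8372 of 15778 tested genes were called, 4062 higher, 4310 lower and 5002 beyond 1.5-fold. Of the 9478 genes called above that were tested in this fit, 8329 were called in the same direction. In 4001 genes (24.2%) all 4 EGF libraries lay above all 4 controls, and in 3965 (24%) all 4 lay below. The median log2 fold change over all genes was -0.01, with quartiles of -0.43 and 0.42. The split depended on the scaling. With library sizes alone and no TMM factor, 3666 genes were higher and 6421 lower, so that 36.3% of called genes were higher in place of 49.6%, and the median of all genes moved by -0.14. List counts below are to be read against 29.2% called higher and 29.6% called lower among all genes. They cover tested members only. A member at 0 in every control passed the filter through EGF libraries and could not be called lower. Members near 0 in the controls, such as SERPINB3, TGM2, PLAT, COL17A1 and WNT7A below, also passed through EGF libraries and could hardly be called lower. The counts of lists with such members favor a rise. Where a median is given with members held at the floor, only those at 0 were so treated.

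**Figure D1:**
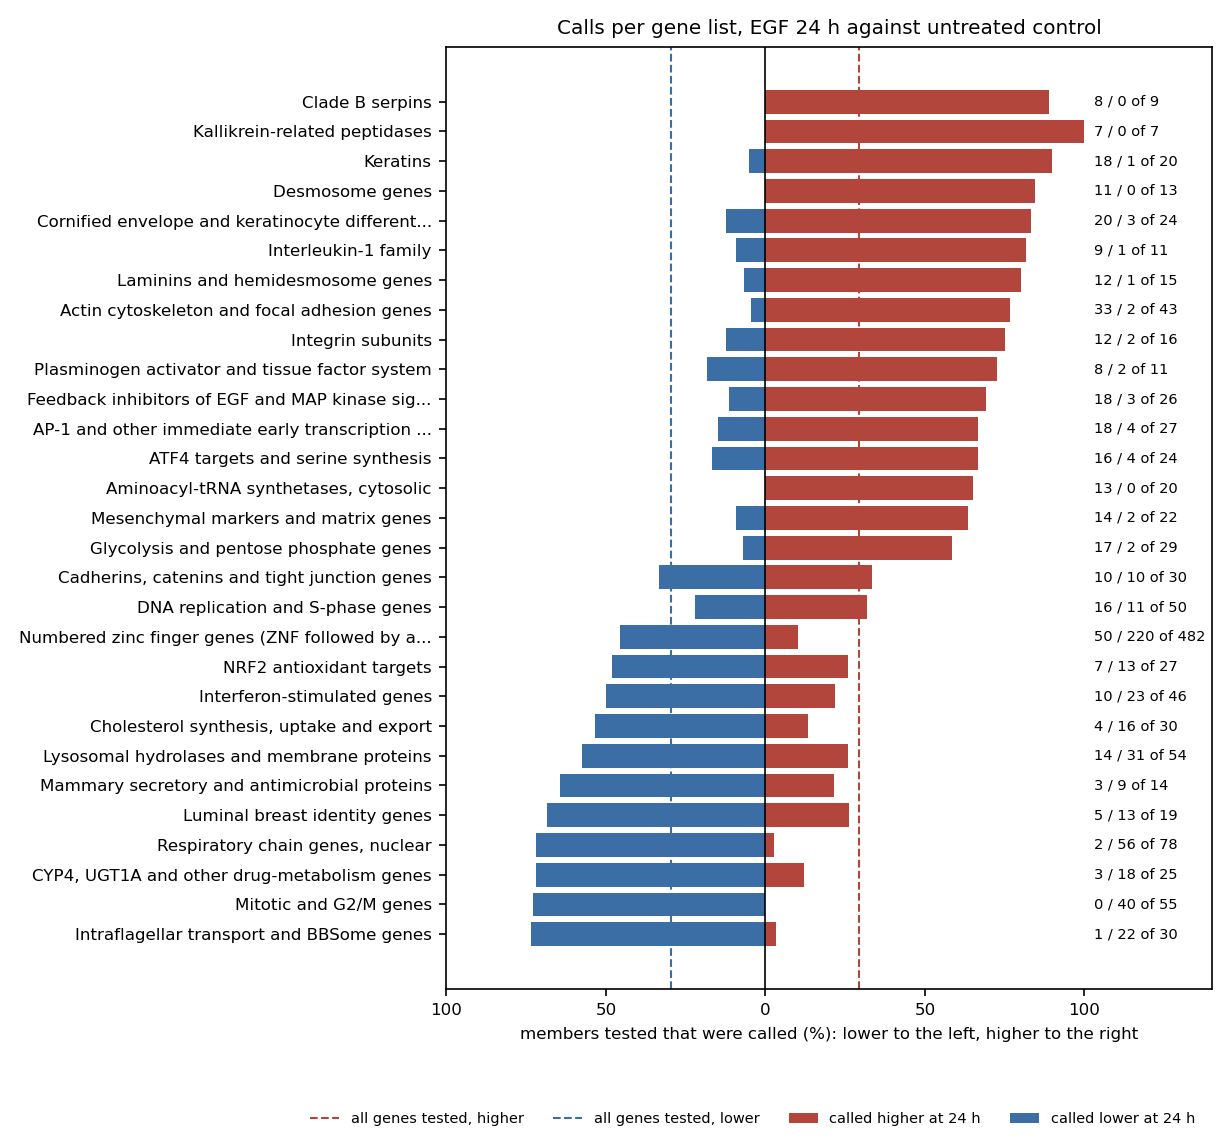
Percent of the tested members of each gene list called at 24 h against the untreated control, lower to the left and higher to the right, with dashed lines at the percent of all tested genes called in each direction and the counts higher, lower and tested at the right. Keratins (18 of 20) and clade B serpins (8 of 9) reach far to the right, and mitotic genes (40 of 55) and nuclear respiratory chain genes (56 of 78) far to the left.

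The sequences below are shown because AP-1 is a DNA-binding output of the EGF cascade and its motif stands in front of several of the genes described next. Those printed were taken from genes that rose, and the motif is also in promoters of genes that fell, such as SLC43A2 (log2 fold change -3.10) and SCGB2A2 (log2 fold change -2.40). Promoters ran from 250 bases before to 50 after the RefSeq gene start (GRCh38.p14). They were matched by Ensembl gene ID, or else by symbol, for 11369 of the 16522 tested genes. The AP-1 motif TGACTCA, searched on both strands, was present in 3.39% of tested promoters and in 4.92% of all 27305 promoters of the table. Among genes that rose more than 1.5-fold, 6.51% of 1828 promoters held it, against 3.05% of 1870 promoters of genes that fell by as much and 2.71% of 4347 promoters of genes that were not called. Among those that rose more than 4-fold it was found in 50 of 399 (12.5%), and among those that fell more than 4-fold in 11 of 180 (6.11%). These shares are descriptions with no test, and the window leaves out enhancers. Each line below gives 100 bases of a promoter, 5′ to 3′ on the strand of the gene, with the motif in capitals (TGAGTCA is the same motif on the opposite strand). They are SPRR1B (chr1:153031015-153031114, plus strand), a cornified envelope protein, CXCL8 (chr4:73740385-73740484, plus strand), the chemokine interleukin-8, SPRR3 (chr1:153001532-153001631, plus strand), a second small proline-rich protein, and F3 (chr1:94541910-94542009, minus strand), tissue factor.
SPRR1B: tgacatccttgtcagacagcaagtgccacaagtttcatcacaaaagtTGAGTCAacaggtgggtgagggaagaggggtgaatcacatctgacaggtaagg
CXCL8: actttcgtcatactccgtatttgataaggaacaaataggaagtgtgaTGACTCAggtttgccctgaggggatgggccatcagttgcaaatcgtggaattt
SPRR3: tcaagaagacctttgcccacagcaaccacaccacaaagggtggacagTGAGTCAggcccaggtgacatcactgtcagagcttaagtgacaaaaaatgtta
F3: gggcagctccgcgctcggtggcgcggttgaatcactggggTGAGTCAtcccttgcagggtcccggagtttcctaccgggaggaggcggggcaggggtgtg

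Shares were also taken for motifs of other factors. The CHR element TTTGAA, known from promoters of mitotic genes, was present in 10.7% of promoters of genes that rose more than 1.5-fold and 12.6% of those that fell, beside 10.1% of tested promoters. For the CCAAT box the shares were 30.8% and 38%, beside 36.7%, and for the E2F motifs TTTGGCGC and TTTCCCGC 1.81% and 3.26%, beside 3.63%. The cAMP response element TGACGTCA was in 2.79% and 2.35%, beside 3.1%, and the CLEAR motif of lysosomal genes in 0.383% and 0.802%, beside 0.721%. Shares beyond 4-fold differed for other motifs than AP-1 too. Among genes that rose and fell more than 4-fold, the CHR element was in 15.5% and 17.8% of promoters and the CCAAT box in 28.8% and 37.8%. For the E2F motifs these shares were 1.5% and 2.22%, and for the cAMP response element 1.5% and 1.67%.

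The EGF receptor gene itself rose, and ERBB2 and ERBB3 of its family fell. EGFR counted 3357, 3534, 3421 and 3583 CPM in the controls and 6996, 7689.8, 9047 and 7421 CPM at 24 h. All 4 EGF libraries were above the controls (log2 fold change 1.16 ± 0.07 (SE), adjusted p = 3.81e-13), at a level between the 12 h mean of 11752 ± 323 and the 48 h mean of 5607 ± 420.2 CPM. ERBB2, the receptor without a ligand of its own, fell from 21.5 ± 2.96 to 12.1 ± 2.92 CPM (log2 fold change -0.83 ± 0.15 (SE), adjusted p = 4.99e-05), and ERBB3, a receptor for neuregulins, fell from 62.2 ± 3.76 to 47 ± 2.14 CPM (log2 fold change -0.40 ± 0.06 (SE), adjusted p = 9.23e-06). ERBB4 did not pass the filter on low counts.

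Genes for ligands of EGFR rose. Of the list of EGF family ligands, 5 of 8 tested members rose and 2 fell, with a median log2 fold change of 2.05. AREG, amphiregulin, was found at 1.56, 1.89, 1.84 and 1.87 CPM in the controls and 31.4, 53.9, 60.3 and 67.6 CPM at 24 h. Every 24 h library lay far above every control, and replicate 1 was the lowest of them (log2 fold change 4.89 ± 0.26 (SE), adjusted p = 4.96e-12, 29.6-fold). HBEGF, heparin-binding EGF-like growth factor, had 1.96, 1.81, 1.96 and 1.68 CPM in the controls and 9.29, 12, 15.1 and 19.1 CPM at 24 h (log2 fold change 2.90 ± 0.20 (SE), adjusted p = 1.19e-11). EPGN, epigen, and EREG, epiregulin, rose from 0.487 ± 0.28 to 10.9 ± 2 CPM and from 0.517 ± 0.129 to 5.86 ± 0.398 CPM, with log2 fold changes of 4.46 and 3.48. TGFA, transforming growth factor alpha, was already present in the controls and rose from 30 ± 1.5 to 69.5 ± 12 CPM (log2 fold change 1.21 ± 0.10 (SE), adjusted p = 4.20e-10). The EGF gene, whose product was added to the medium, fell from 5.13 ± 0.271 to 3.76 ± 0.445 CPM (log2 fold change -0.45 ± 0.13 (SE), adjusted p = 0.00475).

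Inhibitors that act on the EGF cascade rose as a group. In the list of feedback inhibitors, 18 of 26 tested members rose and 3 fell, with a median log2 fold change of 0.75. DUSP6, a phosphatase that inactivates ERK, measured 4.77, 6.26, 5.21 and 5.19 CPM in the controls and 30.5, 40.4, 43.9 and 45.6 CPM at 24 h. The 24 h libraries did not overlap the controls (log2 fold change 2.90 ± 0.13 (SE), adjusted p = 2.64e-15). DUSP5, a nuclear ERK phosphatase, rose from 10.3 ± 0.69 to 76.7 ± 18.9 CPM, SPRY4, a Sprouty inhibitor of RAS signaling, rose from 8.69 ± 1.11 to 44.8 ± 10.1 CPM, and PHLDA1, an early target of the cascade, rose from 42.5 ± 6.49 to 639 ± 162 CPM. The log2 fold changes of these genes were 2.89, 2.36 and 3.91. LRIG1, which promotes the breakdown of ERBB receptors, went the other way with 27.8, 31.4, 30.6 and 29.4 CPM in the controls and 13.1, 11.5, 9.75 and 11.3 CPM at 24 h (log2 fold change -1.38 ± 0.10 (SE), adjusted p = 1.18e-11).

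Transcription factors of the immediate early class were raised at 24 h in most cases, but EGR1 was below the control. In the list of AP-1 and immediate early factors, 18 of 27 tested members rose and 4 fell, with a median log2 fold change of 0.74; the median is 0.65 when the member at 0 in all controls is held at the count floor. FOSL1, the FRA-1 subunit of AP-1, was counted at 2.31, 3.87, 2.35 and 2.6 CPM in the controls and 44.6, 86.8, 99.8 and 97.2 CPM at 24 h. Replicate 1 was again the lowest 24 h library and still above all controls (log2 fold change 4.87 ± 0.25 (SE), adjusted p = 5.41e-12). IER3, an early gene that acts on cell survival, rose from 52.7 ± 3.5 to 367 ± 96 CPM, and MYC rose from 123 ± 9.1 to 227 ± 41.7 CPM, with log2 fold changes of 2.80 and 0.89. EGR1, a zinc finger factor induced within minutes of receptor activation, had 48.8, 73.4, 41.9 and 58.2 CPM in the controls and 19.9, 22.5, 24 and 27 CPM at 24 h, and fell (log2 fold change -1.25 ± 0.14 (SE), adjusted p = 1.47e-07). At 12 h it was above the control, at 84.3 ± 2.3 CPM. BATF, an AP-1 partner of lymphoid cells, fell from 7.22 ± 0.567 to 1.32 ± 0.601 CPM (log2 fold change -2.41 ± 0.20 (SE), adjusted p = 3.16e-10).

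ETS factors are phosphorylated by ERK. Of that list, 9 of 21 tested members rose and 6 fell, with a median log2 fold change of 0.12, and the median turned to -0.02 with library sizes alone. The PEA3 subfamily rose together. ETV5 had 15.1, 18.3, 16.8 and 18 CPM in the controls and 78.4, 77.9, 84.6 and 74 CPM at 24 h (log2 fold change 2.20 ± 0.08 (SE), adjusted p = 1.28e-16). ETV4 rose from 8.3 ± 1.25 to 30.9 ± 0.705 CPM and ETV1 rose from 3.7 ± 0.678 to 21.1 ± 2.82 CPM, with log2 fold changes of 1.89 and 2.50. All 3 were higher at 24 h than at 12 h, with log2 differences of 1.13, 0.69 and 2.16. ELK3, a ternary complex factor, rose from 7.58 ± 0.556 to 50.7 ± 12 CPM (log2 fold change 2.74 ± 0.12 (SE), adjusted p = 5.32e-15) but was lower than at 12 h (log2 fold change -1.52 ± 0.11 (SE), adjusted p = 1.25e-10).

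**Figure D2:**
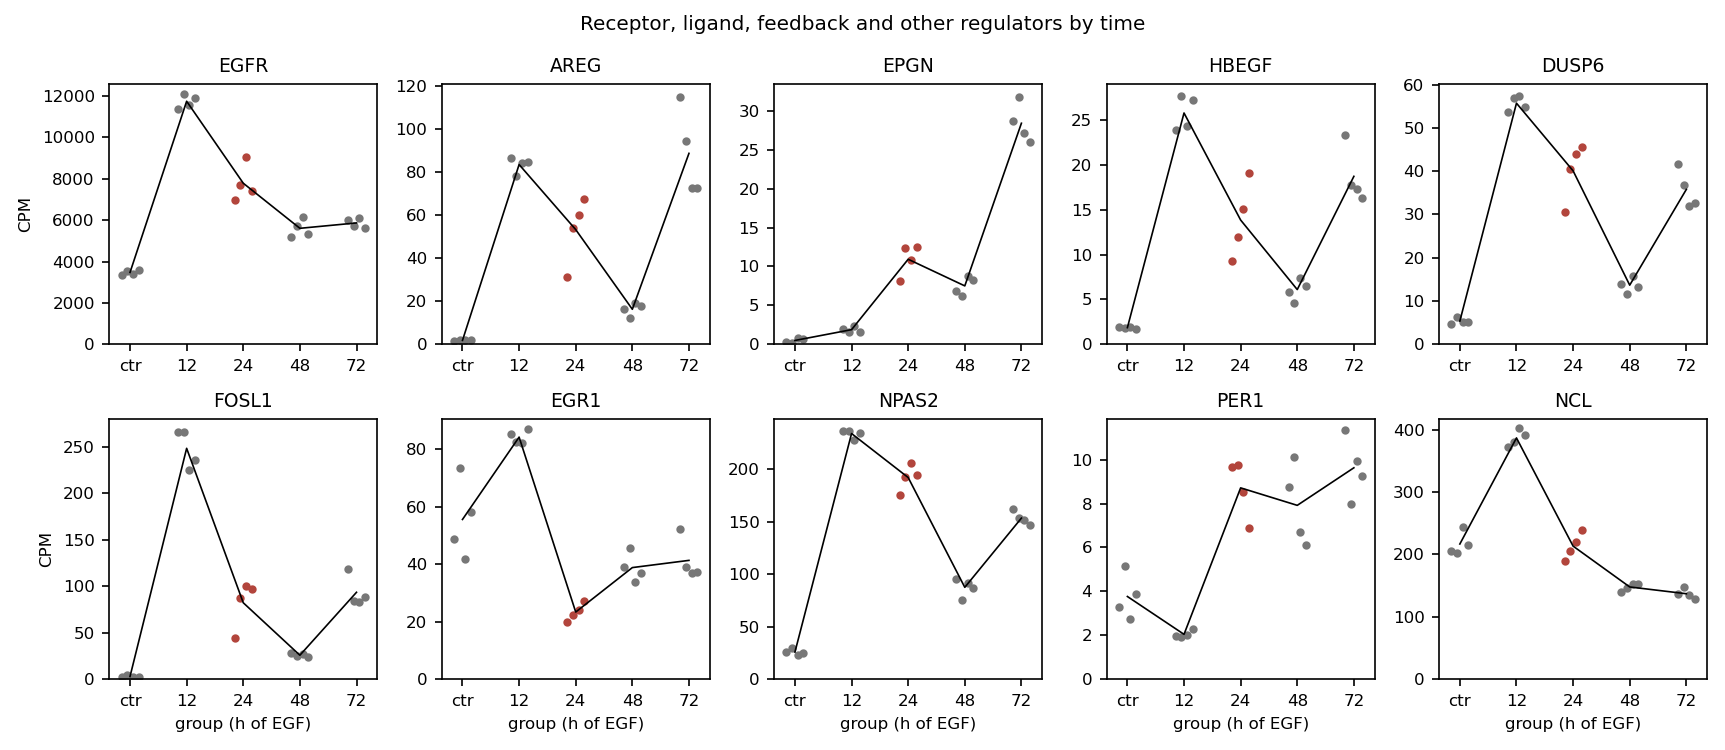
CPM on a linear axis from 0 in each of the 4 libraries of the control (ctr) and of EGF for 12 h, 24 h, 48 h and 72 h, for 10 regulators, with 24 h in red and lines through the group means. AREG stands above the controls at 24 h, drops at 48 h and is high again at 72 h, while EGR1 is below the control at 24 h and above it at 12 h.

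The epithelial cells gained a set of transcripts known from stressed and stratified epithelium. Of the keratins, 18 of 20 tested members rose and 1 fell, with a median log2 fold change of 1.56. KRT6A, a keratin of wounded epidermis, measured 3.37, 2.14, 2.22 and 2.6 CPM in the controls and 541, 686, 623 and 719 CPM at 24 h. None of the 24 h libraries came near the controls (log2 fold change 7.97 ± 0.14 (SE), adjusted p = 1.39e-22, 251-fold). KRT6B rose from 6.29 ± 0.352 to 343 ± 18.7 CPM (log2 fold change 5.77 ± 0.09 (SE), adjusted p = 3.91e-23). KRT6A and KRT6B are close paralogs, so that reads of one may have been counted for the other. KRT16, their usual partner, rose from 11 ± 2.09 to 66.9 ± 5.68 CPM, with a log2 fold change of 2.60. Keratins of simple and basal epithelium moved in the same direction. KRT8 and KRT18, the luminal pair, rose from 146 ± 26.7 to 371 ± 41.1 CPM and from 788 ± 84.4 to 2649.8 ± 327 CPM, and KRT5, a basal keratin, rose from 198 ± 20.7 to 475 ± 31.2 CPM, with log2 fold changes of 1.34, 1.75 and 1.26. KRT4, a keratin of mucosal epithelium, was the member that fell, with 13.2, 13.2, 9.9 and 10.1 CPM in the controls and 3.71, 3.45, 4.42 and 2.88 CPM at 24 h (log2 fold change -1.69 ± 0.13 (SE), adjusted p = 4.50e-11). By position, 10 of 11 tested keratins of the chromosome 12 cluster (52168996 to 52952901) rose and 1 fell, and 8 of 9 on chromosome 17 (40818117 to 41624842) rose. These and the following gene coordinates are GRCh38.

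Cornified envelope genes code for proteins that are cross-linked under the membrane of differentiating keratinocytes. In that list, 20 of 24 tested members rose and 3 fell, with a median log2 fold change of 2.66; the median is 1.94 with the member at 0 in the controls held at the floor. SPRR1B, whose promoter sequence is given above, had 0.603, 0.462, 0.512 and 0.529 CPM in the controls and 46.6, 61.2, 59.7 and 60.1 CPM at 24 h (log2 fold change 6.75 ± 0.12 (SE), adjusted p = 2.50e-22). SPRR3 rose from 0.736 ± 0.201 to 32.9 ± 5.71 CPM (log2 fold change 5.49 ± 0.17 (SE), adjusted p = 2.35e-18) and was higher still at 72 h, at 265 ± 19.3 CPM. All 5 tested small proline-rich genes, which lie side by side on chromosome 1 (152947154 to 153057537), rose. TGM2, a transglutaminase, rose from 0.19 ± 0.0653 to 14.3 ± 2.19 CPM (log2 fold change 6.16 ± 0.22 (SE), adjusted p = 3.94e-17). Other members of the list were split. IVL, involucrin, rose from 1.61 ± 0.122 to 3.33 ± 0.739 CPM, and TGM1, the keratinocyte transglutaminase, fell from 1.29 ± 0.387 to 0.523 ± 0.0927 CPM, with log2 fold changes of 1.06 and -1.27.

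Clade B serpins, intracellular protease inhibitors of squamous epithelium, were among the genes with the steepest rise. In that list, 8 of 9 tested members rose and 0 fell, with a median log2 fold change of 4.59. SERPINB3 had 0.1, 0.042, 0.171 and 0 CPM in the controls and 61.4, 85.9, 97.5 and 114 CPM at 24 h (log2 fold change 10.03 ± 0.37 (SE), adjusted p = 1.15e-14; 10.73 without control replicate 3), and SERPINB4, its near-identical neighbor with which reads may be shared, 0, 0.0841, 0.128 and 0.0481 CPM in the controls and 32.4, 51.6, 58.8 and 68.3 CPM at 24 h (log2 fold change 9.47 ± 0.39 (SE), adjusted p = 2.33e-14). Both were close to 0 in every control. They passed the filter through EGF libraries and could hardly have been called lower, so that the count of this list favors a rise. SERPINB2, plasminogen activator inhibitor type 2, had 0.251, 0.42, 0.555 and 0.144 CPM in the controls and 25.1, 62.2, 59 and 83.2 CPM at 24 h (log2 fold change 7.32 ± 0.44 (SE), adjusted p = 2.32e-10). On chromosome 18 (63476761 to 64019779) all 6 tested serpins of the cluster rose, and on chromosome 6 (2832332 to 2972165) 2 of 3. Kallikrein-related peptidases, serine proteases that shed the outer epidermis, rose in all 7 tested members, which share a cluster on chromosome 19 (50819148 to 51020175), with a median log2 fold change of 1.45. KLK10 and KLK6 rose from 12 ± 2.24 to 76 ± 4.55 CPM and from 57.2 ± 11.4 to 293 ± 37.6 CPM, with log2 fold changes of 2.66 and 2.36.

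Desmosome genes also rose rather than fell. In that list, 11 of 13 tested members rose and 0 fell, with a median log2 fold change of 0.52. DSG3, a desmoglein of stratified epithelium, was at 0 in all 4 controls and at 6.18, 10.7, 9.36 and 11.8 CPM at 24 h, which is at least 69.3-fold higher when 3 counts per library are taken as the floor (adjusted p = 1.46e-14). DSG2, the desmoglein of simple epithelium, rose from 143 ± 21.5 to 331 ± 38.3 CPM (log2 fold change 1.21 ± 0.12 (SE), adjusted p = 5.80e-09). S100 proteins, small calcium-binding proteins, were split, and 11 of 16 tested members rose and 4 fell, with a median log2 fold change of 0.71. S100P had 32.1, 32, 24.5 and 23.4 CPM in the controls and 439, 516, 493 and 533 CPM at 24 h (log2 fold change 4.14 ± 0.10 (SE), adjusted p = 2.04e-20), while S100A8 and S100A9, the subunits of calprotectin, fell from 217 ± 14.5 to 58.1 ± 6.57 CPM and from 1318 ± 82.4 to 836 ± 109.8 CPM, with log2 fold changes of -1.90 and -0.66. LCN2, lipocalin-2, an iron-carrier protein of inflamed epithelium, rose from 141 ± 27.4 to 363 ± 10.7 CPM (log2 fold change 1.36 ± 0.09 (SE), adjusted p = 3.26e-12).

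**Figure D3:**
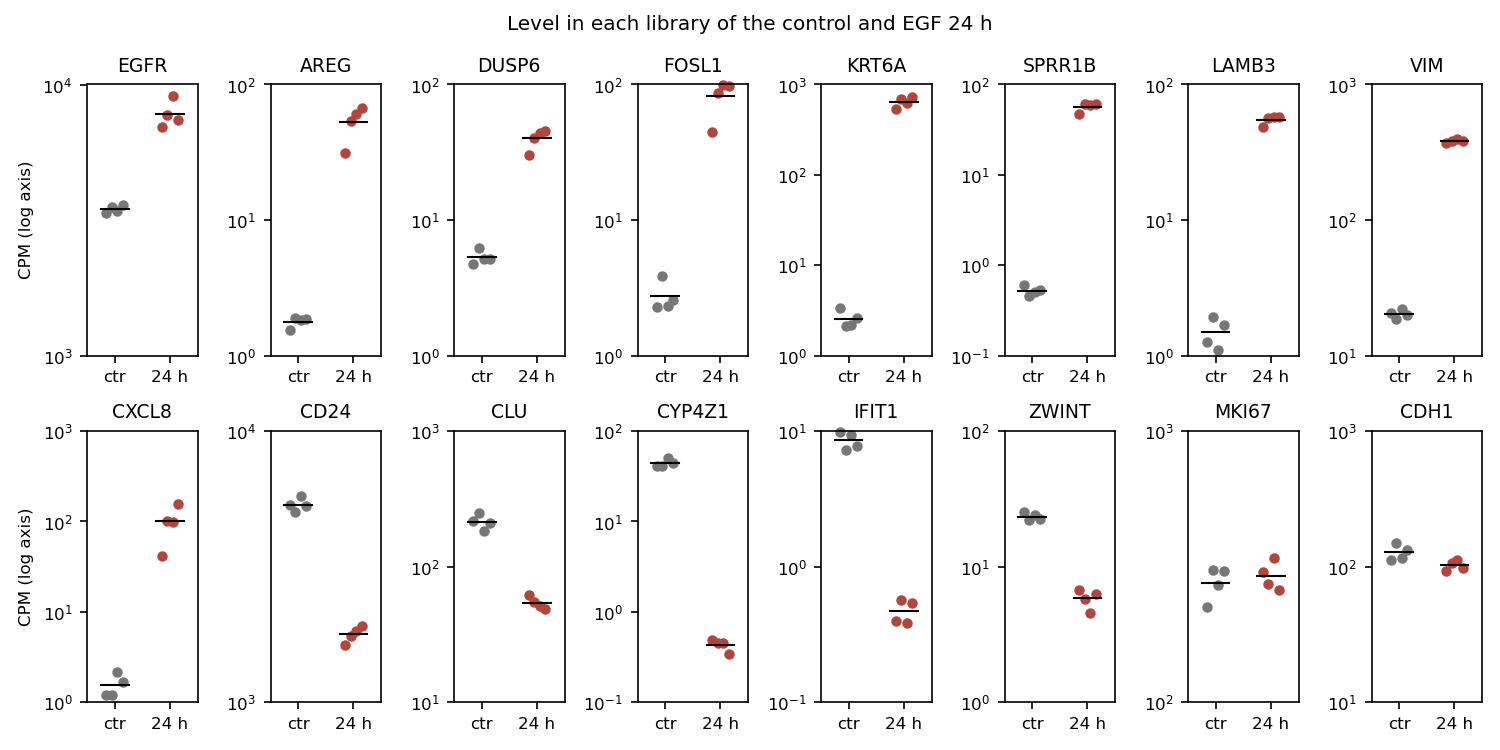
CPM on a log axis in each of the 4 control (ctr, gray) and 4 EGF 24 h (red) libraries for 16 genes, 1 panel per gene, with a bar at the group mean. The groups lie apart for KRT6A, AREG and VIM (higher with EGF) and for CYP4Z1 and CD24 (lower), lie close together for CDH1 and overlap for MKI67.

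Attachment to the basement membrane was the next group to rise. Of the laminin and hemidesmosome genes, 12 of 15 tested members rose and 1 fell, with a median log2 fold change of 1.58. LAMB3, a chain of laminin-332, on which keratinocytes migrate, had 1.26, 1.93, 1.11 and 1.68 CPM in the controls and 48.4, 57, 57.4 and 57.2 CPM at 24 h (log2 fold change 5.19 ± 0.14 (SE), adjusted p = 2.30e-19). COL17A1, a hemidesmosome collagen, rose from 0.0827 ± 0.0623 to 1.49 ± 0.393 CPM and remained scarce. Of the integrin subunits, 12 of 16 tested members rose and 2 fell, with a median log2 fold change of 1.43. ITGA2, part of a collagen receptor, measured 16, 21.2, 19.1 and 17.7 CPM in the controls and 162, 281, 323 and 298 CPM at 24 h (log2 fold change 3.84 ± 0.18 (SE), adjusted p = 8.45e-13). ITGB4, the hemidesmosome integrin, and ITGA5, part of the fibronectin receptor, rose from 18.8 ± 4.24 to 94.5 ± 14.4 CPM and from 2.16 ± 0.388 to 14.4 ± 1.64 CPM, with log2 fold changes of 2.33 and 2.73. ITGB6, which binds latent TGF-beta, fell from 85.8 ± 14.4 to 42.9 ± 4.24 CPM (log2 fold change -1.0 ± 0.12 (SE), adjusted p = 1.89e-07).

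Pericellular proteolysis and coagulation genes showed large increases. In the plasminogen activator and tissue factor list, 8 of 11 tested members rose and 2 fell, with a median log2 fold change of 2.29. PLAT, tissue plasminogen activator, was scarce in the controls and plentiful with EGF, with 0.402, 0.252, 0.213 and 0.24 CPM in the controls and 23.7, 36.1, 42.1 and 41.7 CPM at 24 h (log2 fold change 7.0 ± 0.26 (SE), adjusted p = 1.95e-16). SERPINE2, an inhibitor of such proteases, rose from 2.08 ± 0.364 to 95.5 ± 5.58 CPM, with a log2 fold change of 5.52. PLAU, urokinase, rose by less, from 8.89, 11.4, 7.73 and 8.31 CPM to 9.94, 14.6, 13.1 and 14 CPM, with 1 of the 4 EGF libraries inside the control range (log2 fold change 0.50 ± 0.13 (SE), adjusted p = 0.00171). F3, whose promoter stretch is printed above, had 29.2, 30.2, 32 and 32.2 CPM in the controls and 96.7, 193, 217 and 270.1 CPM at 24 h (log2 fold change 2.65 ± 0.24 (SE), adjusted p = 5.03e-08), well under its 12 h mean of 914 ± 44.1 CPM. F2R, the thrombin receptor PAR1, fell from 41.8 ± 2.89 to 17 ± 1.03 CPM (log2 fold change -1.29 ± 0.08 (SE), adjusted p = 1.62e-12). Of matrix metalloproteinases and their TIMP inhibitors, 10 of 15 tested members rose and 1 fell, with a median log2 fold change of 1.07. MMP7, matrilysin, and TIMP2 rose from 6.83 ± 0.636 to 18.6 ± 1.63 CPM and from 55.9 ± 4.83 to 128 ± 10.7 CPM, with log2 fold changes of 1.45 and 1.20.

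Actin and focal adhesion genes rose in number but by small steps. In that list, 33 of 43 tested members rose and 2 fell, with a median log2 fold change of 0.45. FSCN1, fascin, which bundles actin in protrusions, rose from 0.592 ± 0.135 to 10.7 ± 0.301 CPM (log2 fold change 4.17 ± 0.15 (SE), adjusted p = 3.94e-17). ACTB, beta-actin, had 10607, 11669, 9381 and 10319.6 CPM in the controls and 13604, 14665, 15839.8 and 14712 CPM at 24 h, a small difference with no overlap (log2 fold change 0.49 ± 0.06 (SE), adjusted p = 3.87e-07). ACTB is often taken as a constant reference, and at 12 h it stood at 35107 ± 1275 CPM. CALD1, caldesmon, fell from 169 ± 23 to 129.9 ± 7.37 CPM (log2 fold change -0.38 ± 0.09 (SE), adjusted p = 0.00112), a call that was lost with the deposited factors (adjusted p = 0.204).

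The markers of EMT gave a mixed picture, with a strong rise of vimentin and a smaller change of E-cadherin. Of the mesenchymal and matrix genes, 14 of 22 tested members rose and 2 fell, with a median log2 fold change of 0.87. VIM, vimentin, the intermediate filament of mesenchymal cells, had 20.5, 18.6, 22.1 and 20 CPM in the controls and 372, 382, 396 and 383 CPM at 24 h. The 4 EGF libraries were close to one another and none approached the controls (log2 fold change 4.24 ± 0.08 (SE), adjusted p = 6.59e-22, 18.9-fold). FN1, fibronectin, had 21, 16.2, 16.6 and 17.4 CPM in the controls and 78.3, 95.5, 115 and 93 CPM at 24 h (log2 fold change 2.42 ± 0.11 (SE), adjusted p = 5.73e-15). TNC, tenascin-C, rose from 1.37 ± 0.479 to 23.8 ± 3.96 CPM (log2 fold change 4.10 ± 0.17 (SE), adjusted p = 8.89e-16). Of the 15 EMT transcription factors in the list 7 were tested, and 4 of 7 tested members rose and 1 fell, with a median log2 fold change of 0.29. SNAI1, the factor Snail, had 1.56, 2.19, 1.07 and 1.11 CPM in the controls and 3.91, 3.5, 2.82 and 2 CPM at 24 h, with the highest control above the lowest EGF library (log2 fold change 1.04 ± 0.23 (SE), adjusted p = 3.67e-04). SNAI2, the factor Slug, had no count in any of the 8 libraries, and TWIST1 did not pass the filter on low counts. FOXC1, a forkhead factor of basal-like cells, rose from 67.5 ± 8.52 to 147 ± 24.5 CPM (log2 fold change 1.12 ± 0.12 (SE), adjusted p = 1.47e-08).

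Epithelial junction and regulator genes had no common direction at 24 h. Of cadherins, catenins and tight junction genes, 10 of 30 tested members rose and 10 fell, with a median log2 fold change of 0.02, and with library sizes alone the counts were 9 and 12. CDH1, E-cadherin, had 112, 148, 117 and 133 CPM in the controls and 93.5, 107, 112 and 98 CPM at 24 h. All 4 EGF libraries lay below the lowest control, the nearest by a small margin (log2 fold change -0.32 ± 0.08 (SE), adjusted p = 0.00163), and with factors taken per gene from the deposited normalized values the call was lost (log2 fold change -0.15, adjusted p = 0.66). CDH3, P-cadherin, rose from 28.8 ± 4.51 to 45 ± 3.42 CPM (log2 fold change 0.65 ± 0.10 (SE), adjusted p = 3.49e-06). EPCAM, an epithelial adhesion molecule, was not called, with 192, 175, 189.7 and 169 CPM in the controls and 189, 184, 182 and 183 CPM at 24 h (log2 fold change 0.03 ± 0.06 (SE), adjusted p = 0.734). In the list of epithelial regulators, 8 of 21 tested members rose and 8 fell, with a median log2 fold change of 0.16, and library sizes alone gave 4 and 8. GRHL2, a factor that maintains the epithelial state, had 37.5, 52.6, 39.6 and 44.4 CPM in the controls and 26.8, 25.7, 28.9 and 26.8 CPM at 24 h (log2 fold change -0.69 ± 0.10 (SE), adjusted p = 1.97e-06), a call that was lost with the deposited factors (adjusted p = 0.69). ESRP1, an epithelial splicing regulator, was at 199 ± 3.28 CPM against 171 ± 15.5 in the control (log2 fold change 0.22 ± 0.07 (SE), adjusted p = 0.00649), and lost its call with library sizes alone (adjusted p = 0.36).

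Cytokine genes were more often higher than lower at 24 h, and 13 of 24 chemokines and cytokines were lower at 24 h than at 12 h. Of the interleukin-1 family, 9 of 11 tested members rose and 1 fell, with a median log2 fold change of 2.43. The median is 2.11 with 4 members at 0 in the controls held at the floor. These 4 passed the filter through EGF libraries only and could not have been called lower, so that the count favors a rise. IL1R2, the decoy receptor of interleukin-1, was at 0 in the 4 controls and at 2.57, 2.71, 3.78 and 3.07 CPM at 24 h, at least 22.1-fold higher (adjusted p = 1.95e-12), while IL1R1, the signaling receptor, fell from 32.2 ± 2.45 to 14.4 ± 0.799 CPM (log2 fold change -1.16 ± 0.09 (SE), adjusted p = 1.25e-10). Of the chemokines and other cytokines, 13 of 24 tested members rose and 7 fell, with a median log2 fold change of 0.58. With factors from the deposited values 9 members remained testable, 4 of them higher and 4 lower. CXCL8 had 1.21, 1.22, 2.18 and 1.68 CPM in the controls and 41.6, 102, 99.2 and 157 CPM at 24 h, with EGF replicate 1 lowest and replicate 4 highest (log2 fold change 5.98 ± 0.41 (SE), adjusted p = 2.24e-09). CXCL1, another neutrophil attractant, had 0.502, 0.589, 0.683 and 0.481 CPM in the controls and 6.48, 15.4, 17.4 and 22.5 CPM at 24 h (log2 fold change 4.75 ± 0.41 (SE), adjusted p = 1.73e-08). LIF, a cytokine of the interleukin-6 class, had 1.86, 2.65, 1.58 and 2.31 CPM in the controls and 15.8, 48.6, 47.1 and 55.1 CPM at 24 h, so that replicate 1 was far under the other 3 and still above the controls (log2 fold change 4.30 ± 0.38 (SE), adjusted p = 4.49e-08). INHBA, the activin A subunit, had 1.11, 0.673, 0.854 and 1.11 CPM in the controls and 21.6, 54.4, 60.5 and 74.4 CPM at 24 h (log2 fold change 5.82 ± 0.40 (SE), adjusted p = 1.39e-09).

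NF-kB and interferon genes moved apart. Among NF-kB subunits and inhibitors, 12 of 18 tested members rose and 1 fell, with a median log2 fold change of 0.30. BIRC3, an inhibitor of apoptosis, and TNFAIP3, the ubiquitin-editing protein A20, rose from 10.5 ± 1.67 to 39.1 ± 5.63 CPM and from 5 ± 0.239 to 14.6 ± 3.5 CPM, with log2 fold changes of 1.89 and 1.55. NFKBIA, the inhibitor IkB-alpha, was lower with overlapping groups, 15.1, 18.1, 12.4 and 14.7 CPM in the controls and 10.6, 12.6, 11.2 and 13.6 CPM at 24 h (log2 fold change -0.33 ± 0.11 (SE), adjusted p = 0.0112), and without control replicate 2 it was not called (adjusted p = 0.069). Of the interferon-stimulated genes, 10 of 46 tested members rose and 23 fell, with a median log2 fold change of -0.32. IFIT1, an inhibitor of viral translation, had 9.79, 7.23, 9.39 and 7.74 CPM in the controls and 0.395, 0.565, 0.385 and 0.537 CPM at 24 h (log2 fold change -4.16 ± 0.20 (SE), adjusted p = 1.01e-14). TRIM22, an antiviral ubiquitin ligase, fell from 15.5 ± 1.06 to 3.45 ± 0.408 CPM, and CXCL10, an interferon-induced chemokine, fell from 2.11 ± 0.281 to 0.397 ± 0.159 CPM, with log2 fold changes of -2.16 and -2.40. DDX60L rose from 8.58 ± 1.05 to 24.9 ± 2.42 CPM (log2 fold change 1.53 ± 0.13 (SE), adjusted p = 3.08e-10), and so did CD274, the checkpoint ligand PD-L1, from 0.261 ± 0.0717 to 4 ± 0.902 CPM (log2 fold change 3.90 ± 0.33 (SE), adjusted p = 5.35e-10).

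Genes of luminal breast identity fell more often than they rose. In that list, 5 of 19 tested members rose and 13 fell, with a median log2 fold change of -0.73. CD24, a surface glycoprotein of luminal cells, had 5329, 5031, 5777 and 5270.4 CPM in the controls and 1624, 1759.7, 1840.0 and 1916 CPM at 24 h. All EGF libraries were far below all controls (log2 fold change -1.58 ± 0.06 (SE), adjusted p = 5.67e-17). FOXA1, the pioneer factor of luminal cells, had 169, 185, 196 and 182 CPM in the controls and 76.1, 71.4, 80.1 and 77.9 CPM at 24 h (log2 fold change -1.26 ± 0.06 (SE), adjusted p = 6.96e-15). XBP1, a factor of secretory cells, fell from 1333 ± 45.3 to 577 ± 18.1 CPM (log2 fold change -1.21 ± 0.05 (SE), adjusted p = 1.30e-15). GATA3, a luminal master regulator, did not follow them, at 42.3 ± 2.77 CPM against 36.3 ± 2 (log2 fold change 0.22 ± 0.07 (SE), adjusted p = 0.0058), and with library sizes alone it was not called (adjusted p = 0.36). STC2, stanniocalcin-2, rose from 22.8 ± 1.92 to 67.6 ± 6.68 CPM (log2 fold change 1.57 ± 0.08 (SE), adjusted p = 5.39e-14).

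Secreted proteins of the mammary gland fell along with these. Of that list, 3 of 14 tested members rose and 9 fell, with a median log2 fold change of -1.33. CLU, clusterin, had 218, 251, 183 and 208 CPM in the controls and 61.5, 54.7, 51.6 and 48.5 CPM at 24 h (log2 fold change -1.99 ± 0.11 (SE), adjusted p = 2.31e-13), and PIP, prolactin-induced protein, fell from 5.03 ± 0.873 to 1.12 ± 0.224 CPM (log2 fold change -2.16 ± 0.24 (SE), adjusted p = 4.21e-08). Mucins were divided, with 2 higher and 3 lower of 6 tested. MUC15, a membrane mucin, had 195, 203, 265 and 240.1 CPM in the controls and 78.5, 47.2, 43.5 and 44.4 CPM at 24 h (log2 fold change -2.08 ± 0.15 (SE), adjusted p = 1.56e-10), in which EGF replicate 1 was the nearest to the controls. MUC1 fell from 132 ± 27.3 to 61.5 ± 6.79 CPM (log2 fold change -1.11 ± 0.14 (SE), adjusted p = 3.64e-07). MUC16, the CA125 antigen, had 17.7, 36.8, 20.3 and 26 CPM in the controls and 165, 230.1, 500.1 and 188 CPM at 24 h, with replicate 3 far above the others (log2 fold change 3.42 ± 0.35 (SE), adjusted p = 4.37e-07).

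CYP4 and UGT1A enzymes, which oxidize or conjugate fatty acids and xenobiotics, included the gene with the steepest fall among those named by the rule. In that list, 3 of 25 tested members rose and 18 fell, with a median log2 fold change of -1.08. The UGT1A members share their last exons, so that reads cannot be assigned cleanly among them. CYP4Z1, a cytochrome known from mammary epithelium, had 41.3, 41.4, 50.2 and 43.7 CPM in the controls and 0.494, 0.452, 0.449 and 0.342 CPM at 24 h. The control range and the EGF range lay far apart (log2 fold change -6.65 ± 0.18 (SE), adjusted p = 3.26e-19). CYP4B1 had 22.7, 24.5, 20.4 and 23.7 CPM in the controls and 1.09, 0.848, 0.705 and 0.586 CPM at 24 h (log2 fold change -4.81 ± 0.17 (SE), adjusted p = 5.67e-17). CYP4F3, a leukotriene hydroxylase, went the other way from 2.9 ± 0.296 to 13 ± 0.783 CPM (log2 fold change 2.16 ± 0.10 (SE), adjusted p = 7.42e-15). Of retinoid and aldehyde dehydrogenase genes, 8 of 28 tested members rose and 16 fell, with a median log2 fold change of -0.47. ALDH3B2 had 629, 669.5, 501 and 575 CPM in the controls and 89.9, 55.1, 48 and 43.4 CPM at 24 h (log2 fold change -3.33 ± 0.19 (SE), adjusted p = 1.60e-11). Enzymes that make retinoic acid were split, since ALDH1A1 fell from 25.9 ± 3.78 to 6.29 ± 0.928 CPM and ALDH1A3 rose from 66.4 ± 9.12 to 218 ± 42.3 CPM, with log2 fold changes of -2.04 and 1.72.

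Glycolysis and the respiratory chain moved in opposite directions. Of the glycolysis and pentose phosphate genes, 17 of 29 tested members rose and 2 fell, with a median log2 fold change of 0.32. PFKP, a phosphofructokinase, had 36.2, 27.5, 28.7 and 29 CPM in the controls and 102, 115, 122 and 131 CPM at 24 h (log2 fold change 1.95 ± 0.08 (SE), adjusted p = 1.87e-15). HK2, hexokinase 2, and LDHA, lactate dehydrogenase A, rose from 20.8 ± 0.375 to 49.9 ± 4.97 CPM and from 595 ± 22.2 to 1147 ± 51.2 CPM, with log2 fold changes of 1.26 and 0.95. SLC2A1, the glucose transporter GLUT1, rose from 105 ± 3.92 to 154 ± 20 CPM (log2 fold change 0.55 ± 0.07 (SE), adjusted p = 6.05e-07). Of the hypoxia response genes, 13 of 29 tested members rose and 4 fell, with a median log2 fold change of 0.22. Among nuclear genes of the respiratory chain, 2 of 78 tested members rose and 56 fell, with a median log2 fold change of -0.37. NDUFA5, a complex I subunit, had 44.1, 25.1, 52.4 and 38.5 CPM in the controls and 14.7, 10.9, 12.8 and 13.7 CPM at 24 h (log2 fold change -1.61 ± 0.18 (SE), adjusted p = 1.61e-07), and ATP5MC2, a subunit of the ATP synthase ring, fell from 122 ± 18.4 to 55.9 ± 4.75 CPM (log2 fold change -1.13 ± 0.11 (SE), adjusted p = 8.76e-09). SDHA, a complex II subunit, was one of the 2 that rose, with 79.4, 58.1, 59.3 and 58.8 CPM in the controls and 73.5, 83, 75.3 and 86.1 CPM at 24 h and control replicate 1 among the EGF values (log2 fold change 0.32 ± 0.08 (SE), adjusted p = 0.00221). It was not called with library sizes alone (adjusted p = 0.084) or with the deposited factors (adjusted p = 0.091).

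The 13 respiratory chain genes encoded in mitochondrial DNA had a median log2 fold change of 0.32, with 2 called higher and none lower. MT-ND4 had 6345, 10809, 7071 and 9968 CPM in the controls and 13654, 16342, 13278 and 11326 CPM at 24 h, higher in all 4 EGF libraries with a wide spread (log2 fold change 0.68 ± 0.26 (SE), adjusted p = 0.0343), and the call was lost in 8 of the alternatives, with adjusted p between 0.052 and 0.097. MT-CO1 was not called (log2 fold change 0.52 ± 0.23 (SE), adjusted p = 0.0614), but 4 of the alternatives called it higher, with adjusted p between 0.0051 and 0.046. Of the mitochondrial ribosomal protein genes, 7 of 78 tested members rose and 35 fell, with a median log2 fold change of -0.15. MRPL40 fell from 29.4 ± 2.86 to 13.8 ± 1.55 CPM (log2 fold change -1.09 ± 0.09 (SE), adjusted p = 3.84e-10). The share of counts from mitochondrial genes, given above, stood beside these values, and its part in them was not tested.

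Most genes of amino acid supply rose. Of the ATF4 targets and serine synthesis genes, 16 of 24 tested members rose and 4 fell, with a median log2 fold change of 0.39. CTH, which makes cysteine, had 9.39, 10.7, 11.7 and 9.76 CPM in the controls and 41.8, 37.7, 43 and 37.6 CPM at 24 h (log2 fold change 1.94 ± 0.08 (SE), adjusted p = 2.13e-15). DDIT3, the stress factor CHOP, and PSAT1, an enzyme of serine synthesis, rose from 3.67 ± 0.512 to 9.36 ± 1.29 CPM and from 425 ± 50 to 644 ± 28.3 CPM, with log2 fold changes of 1.35 and 0.60. Of the amino acid transporters, 16 of 26 tested members rose and 6 fell, with a median log2 fold change of 0.38. SLC38A2, a glutamine and alanine carrier, rose from 249.9 ± 54.6 to 752 ± 119.6 CPM (log2 fold change 1.59 ± 0.13 (SE), adjusted p = 6.49e-10), SLC7A5, the leucine transporter LAT1, rose from 144 ± 28.2 to 224 ± 13 CPM (log2 fold change 0.64 ± 0.11 (SE), adjusted p = 2.02e-05), and SLC43A2 fell from 14.5 ± 1.4 to 1.66 ± 0.605 CPM (log2 fold change -3.10 ± 0.18 (SE), adjusted p = 5.35e-13). Of the cytosolic tRNA synthetases, 13 of 20 tested members rose and 0 fell, with a median log2 fold change of 0.26. WARS1, which loads tryptophan and is also interferon-inducible, had 140.5, 134, 135 and 129 CPM in the controls and 405, 519, 605 and 634 CPM at 24 h (log2 fold change 2.0 ± 0.10 (SE), adjusted p = 6.88e-14), and GARS1, for glycine, rose from 442 ± 19.4 to 904 ± 24.5 CPM (log2 fold change 1.03 ± 0.06 (SE), adjusted p = 4.76e-13).

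Cholesterol synthesis genes tended to lower levels with exceptions. Of that list, 4 of 30 tested members rose and 16 fell, with a median log2 fold change of -0.21. TM7SF2, a sterol reductase, had 33.4, 41.9, 23.3 and 31 CPM in the controls and 7.81, 7.74, 5.06 and 5.76 CPM at 24 h (log2 fold change -2.29 ± 0.18 (SE), adjusted p = 4.57e-10). HMGCS1, an enzyme of the first steps, was not called, at 459 ± 41.3 CPM against 485 ± 64.7 (log2 fold change -0.08 ± 0.09 (SE), adjusted p = 0.455), although library sizes alone called it lower (adjusted p = 0.032).

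Lysosomal genes fell more often than they rose. In that list, 14 of 54 tested members rose and 31 fell, with a median log2 fold change of -0.36. CTSF, cathepsin F, had 19.8, 19.8, 19.2 and 18.3 CPM in the controls and 5.44, 4.92, 4.3 and 3.86 CPM at 24 h (log2 fold change -2.06 ± 0.10 (SE), adjusted p = 2.42e-14). CTSO, cathepsin O, fell from 25.4 ± 3.61 to 9.02 ± 0.847 CPM (log2 fold change -1.49 ± 0.12 (SE), adjusted p = 8.79e-11) and LAMP1, a membrane protein of the lysosome, from 397 ± 29.3 to 284 ± 6.8 CPM (log2 fold change -0.48 ± 0.05 (SE), adjusted p = 7.25e-08). NRF2 targets, which detoxify oxidants, were divided, and 7 of 27 tested members rose and 13 fell, with a median log2 fold change of -0.15. NQO1, a quinone reductase, had 408, 472, 349.8 and 377 CPM in the controls and 178, 159, 175 and 149 CPM at 24 h (log2 fold change -1.28 ± 0.08 (SE), adjusted p = 3.69e-12), and AKR1B10 fell from 58.6 ± 6.51 to 19.6 ± 2.56 CPM (log2 fold change -1.58 ± 0.09 (SE), adjusted p = 5.20e-13). MAFG, the small MAF partner of NRF2, rose from 7.81 ± 1 to 19.9 ± 3.17 CPM (log2 fold change 1.34 ± 0.12 (SE), adjusted p = 2.17e-09). Of metallothioneins and zinc transporters, 11 of 16 tested members rose and 3 fell, with a median log2 fold change of 0.55. The 4 tested metallothioneins, which bind zinc and copper and lie together on chromosome 16 (56608199 to 56684196), all rose. MT2A had 495, 648, 453 and 548 CPM in the controls and 1775, 1969, 2055 and 2009 CPM at 24 h (log2 fold change 1.86 ± 0.10 (SE), adjusted p = 9.26e-14), and MT1X rose from 157 ± 23 to 428 ± 13.7 CPM (log2 fold change 1.45 ± 0.09 (SE), adjusted p = 7.81e-13). Members of this family are similar in sequence and may share reads.

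Mitotic genes fell at 24 h, while the proliferation marker Ki-67 was not called. Of the mitotic and G2/M genes, 0 of 55 tested members rose and 40 fell, with a median log2 fold change of -0.43. Of the 40, 18 fell by more than 1.5-fold. ZWINT, a kinetochore protein, had 25.5, 21.9, 24 and 22.3 CPM in the controls and 6.77, 5.82, 4.55 and 6.25 CPM at 24 h (log2 fold change -1.99 ± 0.13 (SE), adjusted p = 2.28e-12). SPC24, of the NDC80 complex, and KIF15, a spindle motor, fell from 14.1 ± 1.42 to 3.81 ± 0.545 CPM and from 16.8 ± 1.09 to 4.97 ± 0.599 CPM, with log2 fold changes of -1.87 and -1.76. CCNB1, cyclin B1, fell by less, from 236 ± 29.7 to 184 ± 7.65 CPM (log2 fold change -0.36 ± 0.07 (SE), adjusted p = 1.65e-04). MKI67 had 224, 306, 270.1 and 305 CPM in the controls and 302, 272, 340.3 and 259 CPM at 24 h and was not called (log2 fold change 0.08 ± 0.10 (SE), adjusted p = 0.476). PLK1, a mitotic kinase, was not called either (log2 fold change -0.14 ± 0.10 (SE), adjusted p = 0.264), although library sizes alone called it lower (adjusted p = 0.024).

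DNA replication and S-phase genes showed no common direction. In that list, 16 of 50 tested members rose and 11 fell, with a median log2 fold change of 0.03, and with library sizes alone 11 rose and 17 fell. CCNE1, cyclin E1, had 14.4, 12.7, 11.8 and 14.2 CPM in the controls and 31.1, 40.7, 36.9 and 39.2 CPM at 24 h (log2 fold change 1.48 ± 0.09 (SE), adjusted p = 1.63e-12). CDC25A, a phosphatase that activates CDK2, rose from 8.91 ± 0.776 to 13.9 ± 1.36 CPM (log2 fold change 0.64 ± 0.09 (SE), adjusted p = 8.33e-07). PCNA, the sliding clamp of DNA polymerase, was not called (log2 fold change 0.02 ± 0.07 (SE), adjusted p = 0.848). Regulators of G1 rose on both sides. CDKN1A, the CDK inhibitor p21, had 66.3, 80.3, 57.7 and 63.9 CPM in the controls and 239.6, 337, 347 and 371 CPM at 24 h (log2 fold change 2.27 ± 0.12 (SE), adjusted p = 1.03e-13). CCND1, cyclin D1, and CDK6, its kinase partner, rose from 79.4 ± 1.18 to 154 ± 24.2 CPM and from 15 ± 1.36 to 76.2 ± 10.8 CPM, with log2 fold changes of 0.96 and 2.35. CDKN2C, the inhibitor p18, fell from 24.8 ± 1.4 to 8.29 ± 1.78 CPM (log2 fold change -1.57 ± 0.12 (SE), adjusted p = 3.38e-11). Of the p53 target genes, to which CDKN1A belongs, 10 of 27 tested members rose and 9 fell, with a median log2 fold change of -0.05, so that the count and the median differed in sign, and with library sizes alone 8 rose and 13 fell.

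Genes of the primary cilium, and less clearly those of WNT signaling, fell more often than they rose. Of intraflagellar transport and BBSome genes, which build and load the cilium, 1 of 30 tested members rose and 22 fell, with a median log2 fold change of -0.58. BBS1 had 28.6, 26.4, 29.5 and 28.6 CPM in the controls and 7.86, 9.44, 8.78 and 7.57 CPM at 24 h (log2 fold change -1.75 ± 0.14 (SE), adjusted p = 1.03e-10), and IFT122 fell from 20.5 ± 1.68 to 6.7 ± 0.33 CPM (log2 fold change -1.61 ± 0.10 (SE), adjusted p = 1.49e-12). IFT172 was the only called member to rise, from 10.4 ± 1 to 13.6 ± 0.972 CPM (log2 fold change 0.38 ± 0.09 (SE), adjusted p = 6.93e-04). Among WNT pathway genes, 9 of 31 tested members rose and 15 fell, with a median log2 fold change of -0.10. AXIN2, a feedback target of WNT signaling, had 10.7, 9.5, 10.7 and 12.2 CPM in the controls and 2.42, 1.7, 1.92 and 1.32 CPM at 24 h (log2 fold change -2.55 ± 0.18 (SE), adjusted p = 1.92e-11), and WNT6, a ligand, fell from 19.5 ± 5.2 to 5.97 ± 1.46 CPM (log2 fold change -1.70 ± 0.20 (SE), adjusted p = 1.30e-07). WNT7A, another ligand, was detected with at most 2 counts in any control and at 2.03, 2.32, 1.86 and 2.25 CPM at 24 h (adjusted p = 7.95e-12). The 482 tested zinc finger genes with a ZNF number, most of them transcriptional repressors, comprised 50 that rose and 220 that fell, with a median log2 fold change of -0.25.

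Where edgeR called 0 members of a list in one direction at 24 h against the control, DESeq2 also called 0, and at an unadjusted p under 0.05 edgeR gave 1 desmosome gene lower and 0 for the mitotic genes higher and the kallikreins, clade B serpins, tRNA synthetases and mitochondrially encoded respiratory genes lower. For the counts of 0 given below for the other time comparisons, both were 0 as well.

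For genes of ribosome production the direction rested on the scaling. Of the ribosome biogenesis genes, 25 of 68 tested members rose and 6 fell, with a median log2 fold change of 0.11, and with library sizes alone 13 rose and 18 fell. NCL, nucleolin, was not called (log2 fold change -0.02 ± 0.07 (SE), adjusted p = 0.801), while library sizes alone called it lower (adjusted p = 0.041). Of the cytosolic ribosomal protein genes, 16 of 79 tested members rose and 4 fell, with a median log2 fold change of 0.10, none by more than 1.5-fold, and with library sizes alone none rose and 23 fell.

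Among the genes with the largest rise that are not yet named, CEACAM5, a carcinoembryonic antigen, had 0.0502, 0.042, 0.171 and 0.144 CPM in the controls and 22.5, 38.5, 47.4 and 39.6 CPM at 24 h (log2 fold change 8.41 ± 0.37 (SE), adjusted p = 8.21e-14). BMP6, a bone morphogenetic protein, had 0.151, 0.0841, 0 and 0.192 CPM in the controls and 13.4, 15, 15.4 and 15.8 CPM at 24 h (log2 fold change 7.10 ± 0.23 (SE), adjusted p = 6.88e-18). INPP5D, the lipid phosphatase SHIP1, rose from 0.164 ± 0.127 to 12.8 ± 1.86 CPM, IL13RA2, a decoy receptor of interleukin-13, from 0.2 ± 0.111 to 14.2 ± 1.26 CPM and CLMP, a junctional adhesion protein, from 0.447 ± 0.169 to 29.1 ± 0.933 CPM, with log2 fold changes of 6.27, 6.15 and 5.98. Among those with the largest fall, SLC15A2, a peptide transporter, had 28, 28.4, 29.1 and 30.7 CPM in the controls and 1.43, 1.24, 0.898 and 0.781 CPM at 24 h (log2 fold change -4.72 ± 0.17 (SE), adjusted p = 7.44e-17). SELENOP, a secreted selenium carrier, had 88.3, 66.7, 106 and 88.9 CPM in the controls and 6.23, 3.22, 3.72 and 3.27 CPM at 24 h (log2 fold change -4.40 ± 0.18 (SE), adjusted p = 1.03e-15). CRISP3, a secreted cysteine-rich protein, had 323, 295, 381 and 324 CPM in the controls and 24, 22.5, 23.9 and 23.5 CPM at 24 h (log2 fold change -3.82 ± 0.09 (SE), adjusted p = 7.01e-20), and ELAPOR1, an endolysosomal protein, 191, 204, 177 and 191 CPM in the controls and 15.8, 11.2, 13.1 and 9.42 CPM at 24 h (log2 fold change -3.95 ± 0.13 (SE), adjusted p = 1.33e-17). ATP13A5, a P-type ATPase, POU2AF1, a B-cell coactivator, IL22RA2, a soluble receptor of interleukin-22, and EDN2, endothelin-2, fell as well, with log2 fold changes of -4.24, -4.15, -3.85 and -3.57. The control and EGF libraries did not overlap for any of these genes, which the rule that chose them required.

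To place 24 h in the time course, it was compared with 12 h. At 24 h, 4608 genes were higher (27.9%) and 4271 lower (25.9%) than at 12 h. With library sizes alone the counts were 6107 and 2796, so that 68.6% of called genes were higher in place of 51.9%, and with upper-quartile scaling 5913 and 3035, or 66.1%; the median of all genes moved by 0.14 and 0.12. The comparisons with the control and with 12 h share the 24 h libraries. Early genes had receded. Of AP-1 and immediate early factors, 1 rose and 20 fell of 27, median -0.82. CXCL8 had been at 675 ± 24.5 CPM (log2 fold change -2.76 ± 0.29 (SE), adjusted p = 9.86e-07) and CXCL1 at 101 ± 3.93 CPM (log2 fold change -2.70 ± 0.26 (SE), adjusted p = 1.44e-07). SOCS3, an inhibitor of cytokine receptors, was at 36.4 ± 5.74 CPM at 12 h and 4.67 ± 0.684 CPM at 24 h (log2 fold change -2.96 ± 0.13 (SE), adjusted p = 6.75e-14), against a control level of 3.11 ± 0.217 CPM. GLIPR1 fell from 38.1 ± 2.82 to 6.38 ± 0.88 CPM (log2 fold change -2.58 ± 0.15 (SE), adjusted p = 6.22e-12).

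Keratin, actin and ribosome biogenesis genes were lower than at 12 h as well. Among keratins, 0 rose and 15 fell of 20, median -0.96, and among actin and focal adhesion genes, 3 rose and 32 fell of 43, median -0.47. For ribosome biogenesis genes the same comparison gave 1 rose and 64 fell of 68, median -0.65. Lists with more members higher at 24 h than at 12 h included the intraflagellar transport genes (20 rose and 1 fell of 30, median 0.43), the mitotic genes (26 rose and 7 fell of 55, median 0.20) and the circadian clock genes (12 rose and 3 fell of 20, median 0.93). Among the largest rises between the time points, BCL6, a transcriptional repressor, had been at 4.41 ± 0.664 CPM at 12 h and stood at 26.1 ± 8.8 CPM (log2 fold change 2.57 ± 0.20 (SE), adjusted p = 3.01e-09), still below the control mean of 53.1 ± 5.63 CPM. LASTR, a long non-coding RNA, rose from 4.11 ± 0.447 to 19.9 ± 1.79 CPM (log2 fold change 2.27 ± 0.13 (SE), adjusted p = 2.73e-12), and A2ML1, a protease inhibitor of the epidermis, from 5.27 ± 0.417 to 24.5 ± 1.55 CPM (log2 fold change 2.22 ± 0.11 (SE), adjusted p = 2.87e-13). GLYATL2, an acyltransferase, fell from 77 ± 3.71 to 10.7 ± 1.45 CPM (log2 fold change -2.85 ± 0.12 (SE), adjusted p = 2.81e-14).

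Circadian clock genes are driven by BMAL and CLOCK and held in check by the PER and REV-ERB proteins. Against the control, 10 of 20 tested members rose and 4 fell, with a median log2 fold change of 0.30. ARNTL2, a BMAL paralog, had 21.9, 22, 28.3 and 24.8 CPM in the controls and 154, 182, 194 and 204 CPM at 24 h (log2 fold change 2.92 ± 0.13 (SE), adjusted p = 2.96e-15), and NPAS2, a CLOCK paralog, 25.4, 29.5, 22.8 and 25.3 CPM in the controls and 175, 192, 206 and 195 CPM at 24 h (log2 fold change 2.90 ± 0.08 (SE), adjusted p = 8.83e-19). NR1D1, the repressor REV-ERB-alpha, rose from 6.29 ± 1.03 to 26.2 ± 2.66 CPM (log2 fold change 2.06 ± 0.11 (SE), adjusted p = 2.12e-13). PER1 was at 3.77 ± 1.05 CPM in the control, 2.04 ± 0.174 at 12 h and 8.72 ± 1.35 at 24 h, so that it was above the control at 24 h (log2 fold change 1.21 ± 0.18 (SE), adjusted p = 4.06e-06) and above 12 h (log2 fold change 2.09 ± 0.20 (SE), adjusted p = 8.44e-09). DBP, a clock output factor, was at 7.6 ± 1.04, 2.31 ± 0.51 and 10.5 ± 2.07 CPM. Its 24 h level was above 12 h (log2 fold change 2.19 ± 0.18 (SE), adjusted p = 9.12e-10) and above the control (log2 fold change 0.47 ± 0.16 (SE), adjusted p = 0.0119). The latter call was lost without EGF 24 h replicate 1 (adjusted p = 0.065), with library sizes alone (adjusted p = 0.075) and with the deposited factors (adjusted p = 0.079).

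From 24 h to 48 h, 4272 genes rose (25.9%) and 4020 fell (24.3%). With library sizes alone the counts were 5948 and 2337, or 71.8% higher in place of 51.5%, with a shift of the median of all genes by 0.15. Clade B serpins and keratins, which were higher than the control at 24 h, were lower at 48 h than at 24 h. Among clade B serpins, 0 rose and 8 fell of 9, median -2.37, and among keratins, 1 rose and 14 fell of 20, median -1.11. Against the control, 8 of the 9 serpins were still higher at 48 h, median 1.96. Of the 20 keratins, 10 were higher than the control at 48 h and 2 lower, median 0.56. KRT6A fell to 70.2 ± 7.87 CPM (log2 fold change -3.19 ± 0.10 (SE), adjusted p = 1.21e-16), SERPINB2 to 5.65 ± 1.28 CPM (log2 fold change -3.33 ± 0.30 (SE), adjusted p = 1.01e-07) and AREG to 16.3 ± 3.01 CPM (log2 fold change -1.71 ± 0.20 (SE), adjusted p = 9.53e-07). Their means at 72 h were 232 ± 25.4, 37.8 ± 7.58 and 88.8 ± 20.3 CPM. IGFL1, an insulin-growth-factor-like secreted protein, was above the control at 24 h, from 1.9 ± 0.652 to 15.5 ± 1.94 CPM (log2 fold change 3.01 ± 0.17 (SE), adjusted p = 3.73e-13), and at 0.981 ± 0.358 CPM at 48 h (log2 fold change -3.99 ± 0.19 (SE), adjusted p = 1.69e-13), below the control mean.

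Several lists had more members rise than fall between 24 h and 48 h. For CYP4, UGT1A and other drug-metabolism genes, 19 rose and 0 fell of 25, median 1.20. The lysosomal genes gave 28 rose and 7 fell of 54, median 0.36, the NRF2 targets 17 rose and 3 fell of 27, median 0.36 and the interferon-stimulated genes 22 rose and 9 fell of 46, median 0.28. METTL7A, a lipid droplet methyltransferase, had fallen from 23.7 ± 3.59 to 1.49 ± 1.18 CPM at 24 h and stood at 12.6 ± 1.13 CPM at 48 h (log2 fold change 3.03 ± 0.26 (SE), adjusted p = 4.16e-09). ERP27, a chaperone of the endoplasmic reticulum, had fallen from 46.4 ± 4.98 to 3.52 ± 0.432 CPM and stood at 21.4 ± 1.19 CPM (log2 fold change 2.60 ± 0.12 (SE), adjusted p = 5.01e-14). CPHL1P, a pseudogene, and ATP6V1B1, a proton pump subunit, rose from 24 h to 48 h with log2 fold changes of 2.64 and 2.59.

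In 189 genes (1.14%) the 24 h level was more than 1.5-fold above the control, 12 h and 48 h alike, each called. Of these, 44 were also more than 1.5-fold above 72 h, and 16 were more than 1.5-fold below it. PLAT was at 0.277 ± 0.0848 CPM in the control and at 15.7 ± 1.88, 35.9 ± 8.57, 5.39 ± 1.01 and 49.5 ± 7.55 CPM at the 4 times. INPP5D was at 3.61 ± 0.371, 12.8 ± 1.86, 3.58 ± 0.487 and 4.79 ± 0.742 CPM, so that it too was lower on either side of 24 h. SMOC1, a secreted calcium-binding protein, had 3.82, 4.33, 3.76 and 4.76 CPM in the controls and 47.5, 51.7, 52.6 and 50.9 CPM at 24 h, and was at 21.8 ± 1.14 CPM at 12 h and 18.4 ± 2.37 at 48 h. EML5, a microtubule-binding protein, had 3.72, 3.15, 3.29 and 3.89 CPM in the controls and 11.4, 12.5, 13.7 and 13.6 CPM at 24 h, and was at 4.66 ± 0.705 and 5.71 ± 0.544 CPM at those times.

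In 130 genes (0.787%) the 24 h level was more than 1.5-fold below the control, 12 h and 48 h, and 70 of them were also below 72 h by that margin, while 2 were above it. SCPEP1, a serine carboxypeptidase, had 86.7, 70.1, 80.8 and 76.8 CPM in the controls and 9.59, 8.31, 6.73 and 8.35 CPM at 24 h, and was at 23.4 ± 0.989 CPM at 12 h and 26 ± 2.26 at 48 h. PLAAT4, a phospholipid-acting tumor suppressor, had 84.9, 81.1, 73.4 and 77.3 CPM in the controls and 10.7, 9.04, 9.87 and 11.7 CPM at 24 h, and was at 27.2 ± 0.645 and 38.6 ± 5.97 CPM. TRAPPC5, a vesicle tethering subunit, had 15, 16.9, 11.6 and 11.5 CPM in the controls and 0.445, 8.81, 2.89 and 0.683 CPM at 24 h, a spread among the EGF libraries of more than 10-fold. Its fall against the control (log2 fold change -2.14 ± 0.64 (SE), adjusted p = 0.00951) was lost when only the libraries compared were fitted (adjusted p = 0.062), and without EGF 24 h replicate 2 the log2 fold change was -3.46.

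**Figure D4:**
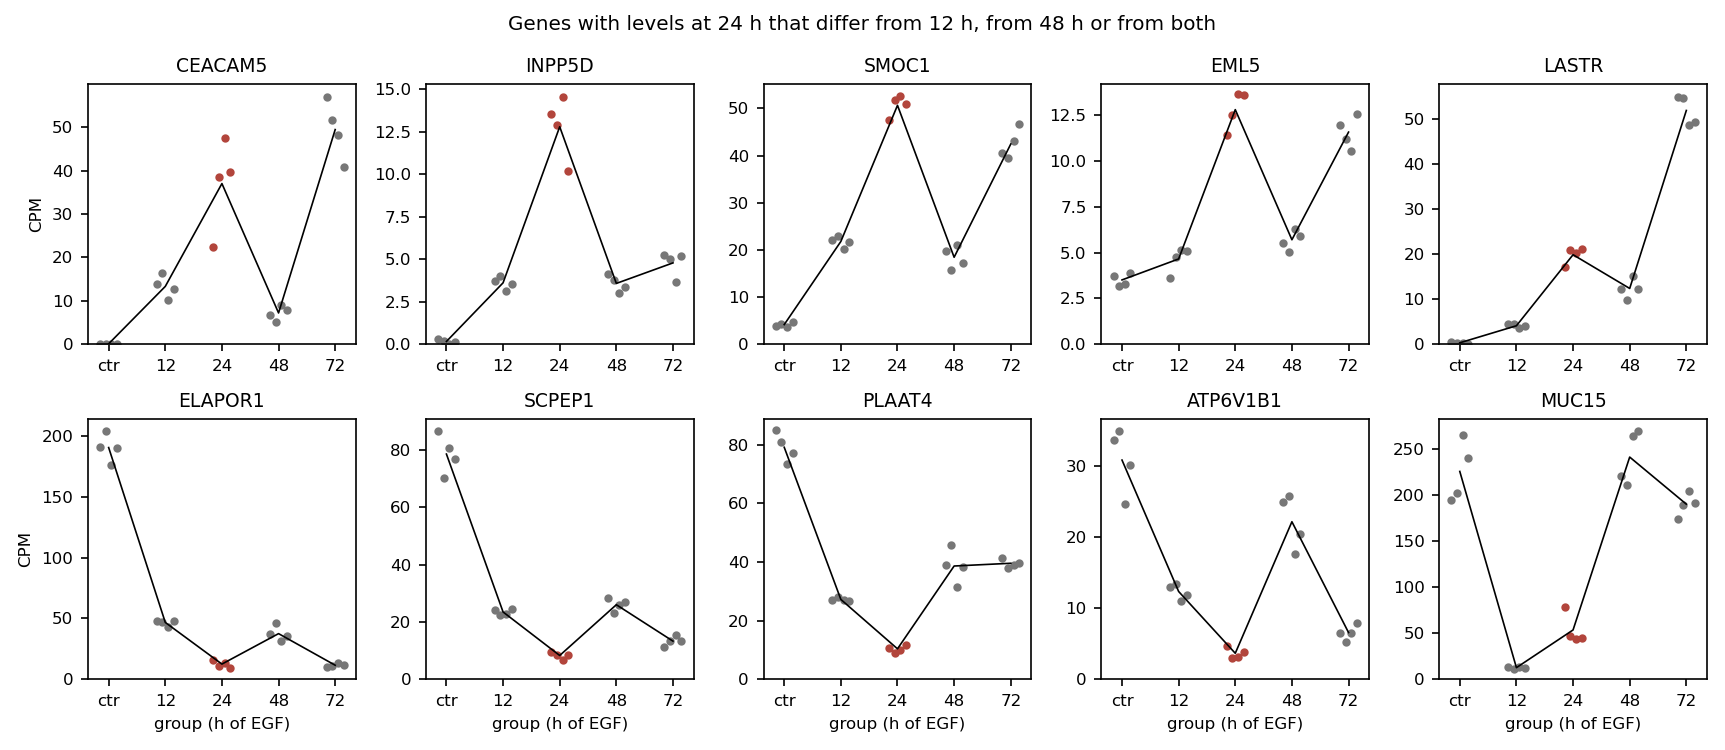
CPM on a linear axis from 0 in each of the 4 libraries of the control (ctr) and of EGF for 12 h, 24 h, 48 h and 72 h, for 10 genes whose 24 h level differed from 12 h, from 48 h or from both, with 24 h in red and lines through the group means. INPP5D is higher at 24 h than in every other group, and SCPEP1 and PLAAT4 are lower.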

How the data were processed

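RNA was extracted from MDA-MB-468 cells and sequenced with the Lexogen CORALL mRNA kit as 75-base single reads. The submitters' processing notes name hg38 and DESeq2, and the aligner, the counting tool, the annotation and whether counting used strand are not given in the sources used here. The authors deposited 1 table per comparison with the same 60271 genes, holding, for every library, whole-number estimated counts without normalization beside a normalized value, here treated as a score, made by the authors with DESeq2. The ratio of these deposited scores to the counts is not constant within a library, and they served only for 1 alternative. Fold changes and p-values of the authors' own tests stand in other columns of the deposited tables and were not used.

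Counts of the 20 libraries were joined and fitted in 1 edgeR 4.0.16 model (R 4.3.3) with 5 groups of 4, so that all groups share 1 estimate of the spread. Genes passed filterByExpr with its defaults, and TMM factors were applied. The quasi-likelihood test gave p-values, adjusted by Benjamini-Hochberg over 16522 genes and called under 0.05. Fold changes use a prior count of 0.125. The SE is the absolute log2 fold change fitted without that prior count, divided by the root of the F statistic. Totals were 18393007 to 22158289 counts in the control and 16120115 to 21419262 at 24 h, which sets the precision of low genes, and floors of 3 counts per library cover counting error only. Counts were also simulated for 15379 genes with the same groups and library sizes, and with few genes changed, only at 24 h. The test recovered 42 of 67 genes changed 1.5-fold, 51 of 60 changed 2-fold and 62 of 64 changed 4-fold, with 6 unchanged genes called. In the real libraries 58.8% of genes were called, so that these shares need not hold there, and the scaling was not tested by them.

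The gene lists and named genes were chosen with earlier results of these data known. Named were the 12 genes with the largest rise and fall (mean of at least 10 CPM in the higher group, more than 3 counts in a library of the lower group, groups not overlapping), up to 3 called members of each list in its main direction and 1 in the other, chosen anchor genes of each list, and 5 genes in each direction for the comparisons in time. Some genes are not reported here. The limit of 4-fold for promoters was added after the data were seen. GC content and gene length were not examined. Replicate numbers are shared between groups, but deviations of same-numbered libraries correlated at only 0.02 to 0.05, so that the numbers were not taken as pairs. Promoter sequences come from RefSeq (GRCh38.p14) and gene positions from GENCODE 29. Alternatives were other scalings, filters, a DESeq2 1.42.0 Wald test, a fit of only the libraries compared, a replicate block and leaving out each library.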

Additional observations from a re-analysis of the deposited data

Results flagged for a closer look

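Of 365 pairs of a printed gene and a group of 4 libraries, 13 held a library whose distance to the nearest other, divided by the range, was above Dixon's 95% critical value for 4 samples. Chance alone gives about 1 in 20 such pairs. EGF 24 h replicate 1 accounted for 9 of the 13. It was the low library at 24 h for PHLDA1 (399 CPM against 686 to 739 in the other 3), SPRR1B (46.6 against 59.7 to 61.2), TGM2 (11 against 15.3 to 15.5), LAMB3 (48.4 against 57 to 57.4), ITGB4 (73.1 against 99.6 to 103) and SLC2A1 (124 against 161 to 167). It was the high library for MUC15 (78.5 against 43.5 to 47.2), METTL7A (3.26 against 0.833 to 0.976) and SELENOP (6.23 against 3.22 to 3.72). In each of these genes replicate 1 lay nearest to the controls and on the same side of them as the other 24 h libraries. Its part in these values was not tested beyond leaving it out, after which each of the 9 genes kept its direction and its call. EGF 24 h replicate 3 was low for MT1X (408 against 433 to 438). Control replicate 1 was low for AREG (1.56 against 1.84 to 1.89) and LAMP1 (353 against 408 to 418) and high for SDHA (79.4 against 58.1 to 59.3).

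Some printed genes lay on opposite sides of the control at 24 h and at another time, called at both times, and the direct difference between the times was called too. EGR1 had a log2 fold change of -1.25 at 24 h and 0.60 at 12 h (direct difference -1.85, edgeR adjusted p = 1.11e-09). CALD1 had -0.38 at 24 h and 0.27 at 12 h, and CDH1 had -0.32 at 24 h and 0.51 at 12 h. IFT172 had 0.38 at 24 h and -0.73 at 12 h, DBP 0.47 and -1.72, and PER1 1.21 and -0.88. ACTB had 0.49 at 24 h and -0.28 at 48 h (direct difference -0.76, adjusted p = 9.48e-10). IGFL1 had 3.01 at 24 h, -0.98 at 48 h and -2.01 at 72 h (direct difference of 72 h from 24 h -5.03, adjusted p = 3.78e-14). These comparisons share the control libraries.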

How the results depend on the processing

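No gene printed as called changed direction under any alternative run. Of 66 lists with more calls in one direction, 12 had more in the other under at least 1 alternative. With library sizes alone these were 9, namely the cytosolic ribosomal protein genes (from 16 higher and 4 lower to 0 and 23), ribosome biogenesis (25 and 6 to 13 and 18), proteasome (16 and 6 to 7 and 15), DNA replication (16 and 11 to 11 and 17), p53 target, fatty acid synthesis, prostaglandin, BCL2 family and MHC class I genes. The deposited factors turned 4 lists (BMP and activin, Eph, sphingolipid and MHC class I), upper-quartile scaling 2 (fatty acid synthesis and p53), the filter of 10 counts 1 (MHC class I), and leaving out a library turned the p53 list (without EGF 24 h replicate 2, and without control replicate 1) and the Eph list (without control replicate 2). With factors per gene and library from the deposited normalized values, chosen after seeing the data and limited to the 11956 genes that had 20 counts or more in all libraries, 6336 genes were called at 24 h against the control, 3211 higher, 3125 lower and 3603 beyond 1.5-fold. Of those 11956 genes 7485 had been called, and 5948 were called in the same direction in both fits. Library sizes alone left 2796 genes lower at 24 h than at 12 h and 2337 lower at 48 h than at 24 h. Keeping only genes with 10 counts or more in all libraries gave 2459 genes beyond 1.5-fold between 24 h and 48 h, 93 genes higher and 77 lower at 24 h than in the control, at 12 h and at 48 h. Fewer genes are tested under it.

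Leaving out 1 library at a time gave, for 24 h against the control, 9105 to 9723 called genes, 4566 to 4892 higher, 4518 to 4831 lower and 5389 to 5833 beyond 1.5-fold. Against 12 h these counts were 8150 to 8484, 4206 to 4392, 3938 to 4092 and 4180 to 4587, and for 48 h against 24 h 7440 to 8284, 3875 to 4270, 3565 to 4014 and 3620 to 4271. Genes higher at 24 h than in the control, at 12 h and at 48 h numbered 162 to 214, and lower ones 110 to 169. With the replicate number as a block, 4928 genes were higher and 4940 lower at 24 h than in the control (9613 of 9717 calls shared), 4694 and 4400 against 12 h, and 4359 and 4199 for 48 h against 24 h, and no printed gene changed its call. The numbers are not known to pair the libraries.

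Of 1258 list counts under alternatives, 1202 stayed within 1.5 times. Of 3259 values of 185 printed genes, 3232 kept their direction and side of the threshold, and 171 genes did so throughout. The losses concerned CALD1, CDH1, GRHL2, ESRP1, GATA3, NFKBIA, SDHA, MT-ND4, DBP and TRAPPC5, and the cause was not tested. Depth limits genes near the count floor, where a missing call does not show that the levels are alike.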

Other observations

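By kind of gene, 4071 of 13365 tested protein-coding genes rose at 24 h and 4173 fell. Of 2403 long non-coding RNA genes 574 rose and 604 fell, and of 616 pseudogenes 143 rose and 96 fell. Pseudogenes share sequence with their parent genes, and reads may have been counted for either.

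Further lists gave the following counts at 24 h against the control. Of Notch receptors, ligands and targets, 9 of 17 tested members rose and 1 fell, with a median log2 fold change of 0.32. Of TGF-beta ligands, receptors and SMADs, 12 of 22 tested members rose and 4 fell, with a median log2 fold change of 0.24. Of cytosolic and mitochondrial heat shock proteins, 14 of 26 tested members rose and 2 fell, with a median log2 fold change of 0.26. Of autophagy genes, 15 of 34 tested members rose and 7 fell, with a median log2 fold change of 0.24. Of triglyceride, lipid droplet and fatty acid oxidation genes, 10 of 38 tested members rose and 19 fell, with a median log2 fold change of -0.30. Of homologous recombination and Fanconi genes, 7 of 28 tested members rose and 9 fell, with a median log2 fold change of -0.17. Of YAP and TEAD target genes, 10 of 19 tested members rose and 8 fell, with a median log2 fold change of 0.40. Of proteasome subunit genes, 16 of 46 tested members rose and 6 fell, with a median log2 fold change of 0.09, but library sizes alone gave 7 and 15.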
